A study of Mus musculus with 2 samples.

Results

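Fibroblasts of mouse pancreatic tumours were divided by whether they held Cdkn2a RNA, and the rest of their transcriptome was compared within each of 2 single-cell libraries. The tumours were grown as allografts of pancreatic ductal adenocarcinoma in mice of the genotype p16-CreERT2/R26-LSL-tdTomato. In these mice a tamoxifen-dependent Cre recombinase made under control of p16 can remove a stop cassette, after which a cell and its descendants make the red fluorescent protein tdTomato. Dissociated stromal cells were stained with antibodies and sorted into tdTomato-positive cells (the Tom positive library) and tdTomato-negative cells (the Tom negative library), and each sort gave 1 library. Both libraries share the tumour model and the genotype. The number and age of the animals, the carcinoma line and the induction schedule are not given in the sources used here. Whether the sorts came from separate animals is not in the labels either.

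A barcode was taken as a fibroblast when it had at least 5000 unique molecular identifiers (UMIs, one per captured transcript), at least 500 genes and at most 10% mitochondrial UMIs. Col1a1, Col1a2 and Col3a1, the main fibrillar collagen genes, had to reach 3000 CPM (UMIs per 1e6 UMIs of the cells) together, and Tyrobp, Pecam1, Rgs5 and Epcam, markers of myeloid, endothelial, mural and epithelial cells, had to stay under 300 CPM together. The Tom positive library held 7568 barcodes, of which 1488 (19.7%) passed. The Tom negative library held 13604, of which 2344 (17.2%) passed. Members were then chosen by their Cdkn2a count alone. Cells with at least 2 Cdkn2a UMIs are called detected and cells with 0 undetected, so the Cdkn2a level of the classes is a description and not a result. There were 196 detected and 991 undetected cells in the Tom positive library, and 328 and 1565 in the Tom negative library. The 301 and 451 cells with 1 Cdkn2a UMI belong to neither class. In the Tom positive library 13 cells passed with 3000 to 6000 CPM of the 3 collagens and 35 fell short with 1500 to 3000 CPM, against 11 and 42 in the Tom negative library.

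Cdkn2a encodes a pair of unrelated tumour suppressors. The p16INK4A protein inhibits CDK4 and CDK6 and so keeps RB active, and the p19ARF protein inhibits MDM2 and so stabilises p53. The locus is silenced by Polycomb in young cells, is switched on in cellular senescence and is widely used as a senescence marker. Senescent cells often secrete cytokines, growth factors and proteases, known as the senescence-associated secretory phenotype. In pancreatic tumours, fibroblasts with contractile genes are usually called myofibroblastic, and those with cytokine genes inflammatory.

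Both proteins come from 1 gene with separate first exons. On mm10 the annotation gives the Cdkn2a transcripts on the minus strand of chromosome 4, from 89274471 to 89282192 for the shorter and from 89274541 to 89294653 for the longer. The start near the gene's end makes p16INK4A and the far start makes p19ARF. Since the kit reads the 3′ end, which both share, the UMIs counted here do not tell the starts apart, and the 250 bases before each start are shown because they belong to separate starts. The far start lies at the end of chr4:89294620-89294869 and the near start at the end of chr4:89282193-89282442, both read on the minus strand (RefSeq, GRCm38.p6, 5′ to 3′). RefSeq places the far start inside the longer transcript given above, so the last bases of the far window lie within that transcript.
Cdkn2a far start: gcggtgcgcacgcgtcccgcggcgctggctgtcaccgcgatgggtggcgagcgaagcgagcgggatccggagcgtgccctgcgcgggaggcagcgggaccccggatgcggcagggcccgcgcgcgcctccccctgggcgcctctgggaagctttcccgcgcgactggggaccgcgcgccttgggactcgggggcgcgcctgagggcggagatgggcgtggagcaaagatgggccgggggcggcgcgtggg
Cdkn2a near start: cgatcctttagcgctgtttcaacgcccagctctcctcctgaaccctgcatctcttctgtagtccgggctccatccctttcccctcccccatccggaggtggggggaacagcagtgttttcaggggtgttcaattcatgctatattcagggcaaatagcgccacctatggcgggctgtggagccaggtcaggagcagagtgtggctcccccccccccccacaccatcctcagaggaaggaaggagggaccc
The far window held 40 CpG dinucleotides at 78.4% G and C, and the near window 7 at 60.0%.

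Promoter stretches of other genes described below are shown for 3 short motifs that the named groups are known for. These are the hypoxia response core ACGTG, the AP-1 site TGANTCA and the kappaB site, each searched on both strands in the 120 bases before the start (RefSeq, GRCm38.p6). Capitals mark the match, and 96 of 135 named genes had a promoter in that table. The stretches are chr4:119108625-119108744 for Slc2a1, chr10:59323176-59323295 for P4ha1, chr7:138909507-138909626 on the minus strand for Bnip3, chr9:7502222-7502341 for Mmp10, chr9:7272394-7272513 for Mmp13, chr5:30012994-30013113 for Il6 and chr5:90891125-90891244 for Cxcl1.
Slc2a1: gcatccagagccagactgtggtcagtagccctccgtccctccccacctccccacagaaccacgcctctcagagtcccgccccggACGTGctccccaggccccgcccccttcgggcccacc
P4ha1: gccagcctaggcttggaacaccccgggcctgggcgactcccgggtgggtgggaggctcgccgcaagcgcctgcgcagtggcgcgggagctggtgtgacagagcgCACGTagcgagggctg
Bnip3: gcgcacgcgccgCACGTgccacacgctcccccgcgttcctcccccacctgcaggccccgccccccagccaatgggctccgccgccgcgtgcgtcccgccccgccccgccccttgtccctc
Mmp10: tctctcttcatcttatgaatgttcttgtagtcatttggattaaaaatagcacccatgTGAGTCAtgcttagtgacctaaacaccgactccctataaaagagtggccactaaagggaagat
Mmp13: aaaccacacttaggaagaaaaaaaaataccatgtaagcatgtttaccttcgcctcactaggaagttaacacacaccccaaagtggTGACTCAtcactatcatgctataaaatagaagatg
Il6: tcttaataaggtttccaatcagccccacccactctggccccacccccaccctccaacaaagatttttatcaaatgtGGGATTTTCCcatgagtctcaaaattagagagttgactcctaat
Cxcl1: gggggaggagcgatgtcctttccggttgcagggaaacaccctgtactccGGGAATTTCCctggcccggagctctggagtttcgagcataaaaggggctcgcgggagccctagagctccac
Of 32851 promoter windows of this length, 9.41% held the hypoxia core, 3.41% the AP-1 site and 1.84% the kappaB site. Neither Cdkn2a window, at its full length, held any of the 3. The genes shown were chosen because they hold a match, so the matches describe these stretches and nothing more.

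Cdkn2a was a low transcript in these fibroblasts. It made up 15.02 CPM of all fibroblast UMIs in the Tom positive library and 16.13 CPM in the Tom negative library. At least 1 UMI was found in 33.4% of the Tom positive and 33.2% of the Tom negative fibroblasts, which had 41083 and 38661.5 UMIs at the median. After thinning each cell to 5000 UMIs the shares were 5.65% and 7.04%. In keratin-high, collagen-low cells, taken as cells that should lack the fibroblast transcripts, it was found in 0 of 22 cells of each library (median 62817.5 and 40099.5 UMIs), which allows a share of up to 15.4% at 95%. Detected cells made up 13.17% of the fibroblasts of the Tom positive library (95% exact binomial interval 11.49 to 14.997%) and 13.99% of those of the Tom negative library (12.61 to 15.46%), so the intervals of the sorts overlap. The highest Cdkn2a count in a cell was 16 and 18 UMIs.

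Detection rose with depth, as the plot of detected cells by depth decile shows. In the Tom positive library 0 of 149 cells of the shallowest decile and 40 of 149 of the deepest were detected. In the Tom negative library the counts were 12 of 235 and 87 of 235. The Cdkn2a level ranged from 11.2 to 17.7 CPM over the deciles of the Tom positive library and from 9.97 to 20.4 CPM over those of the Tom negative library. Median depth was 48677.5 UMIs in detected against 38378 in undetected cells of the Tom positive library, and 49706.5 against 35878 in the Tom negative library. Levels and ratios of detected against undetected cells below therefore weight each decile of undetected cells to its share of the detected cells' UMIs. Means over cells are weighted by share of cells. Shares and levels by cluster, and shares of cells by reporter level, are not weighted. After weighting, mean depth was 51559 against 51007 UMIs and 52608 against 50804 UMIs, and the mitochondrial percent 3.36 against 3.35 and 3.18 against 3.06.

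**Figure D1:**
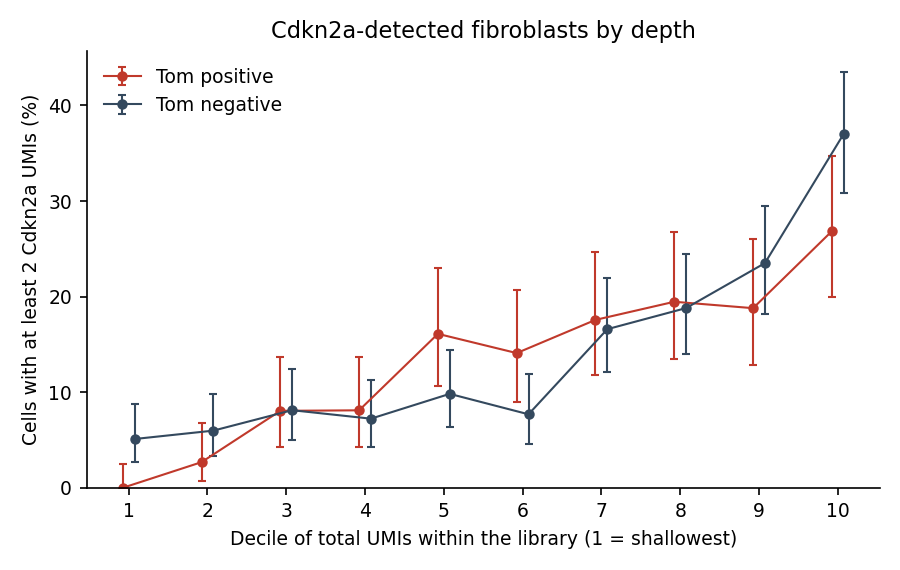
Percent of fibroblasts with at least 2 Cdkn2a UMIs (y axis) in each decile of total UMIs (x axis, 1 is the shallowest), for the Tom positive library (red) and the Tom negative library (blue), with 95% exact binomial intervals. The share climbs from 0% and 5.11% in the shallowest decile to 26.8% and 37.0% in the deepest.

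Levels are CPM of summed UMIs, detected cells first, and ratios are detected over undetected. A gene is called higher or lower when its ratio passes 1.5-fold the same way in both libraries and its higher class reaches 20 CPM in both. Intervals hold counting error only. Detected cells gave 10105557 and 17255383 UMIs, and undetected cells 38292907 and 58034959. Of 6286 genes measured, 124 (1.97%) were called higher and 184 (2.93%) lower, and the 95% counting interval of each excluded 1 in both libraries. In the Tom positive library alone 160 passed upward and 212 downward, and in the Tom negative library 248 and 360, so 77.5% and 50.0% of the upward genes and 86.8% and 51.1% of the downward genes were shared. Wfdc17 was the 1 gene that passed in opposite directions. Its level was 20.0 against 34.1 CPM in the Tom positive and 46.6 against 27.8 CPM in the Tom negative library. As a description over genes, which are not independent, the log2 ratios of the libraries had a Pearson r of 0.84 and a Spearman rho of 0.718. The median ratio of all genes was 0.09 on the log2 scale in each library. Scaling by trimmed means (TMM) moved all log2 ratios by -0.11 and -0.10 and gave 79 higher and 258 lower, so that 23.4% of calls were higher in place of 40.3%.

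**Figure D2:**
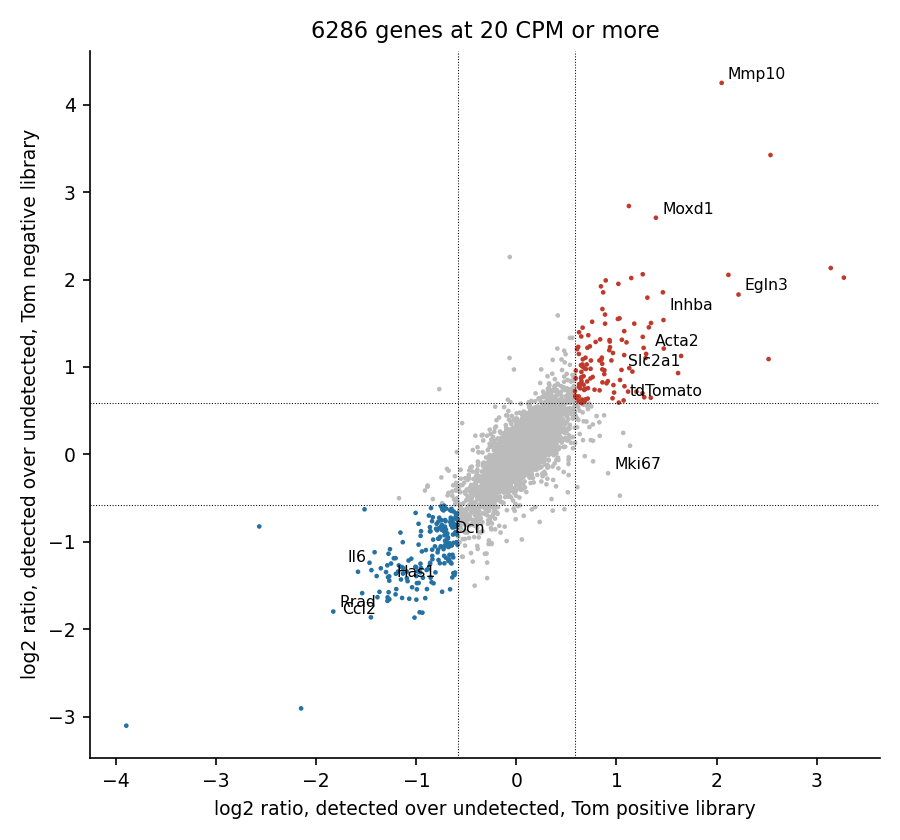
Each point is 1 of 6286 genes, with its log2 ratio of detected over undetected cells in the Tom positive library (x axis) and the Tom negative library (y axis), both log scales. Red points are the 124 genes called higher and blue points the 184 called lower. Dotted lines mark 1.5-fold.

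As the only test over samples, edgeR's quasi-likelihood test was run on 4 sums, a detected and an undetected sum per library of equal cell numbers per decile, with the library as a block. With 2 libraries it leaves 1 residual degree of freedom and measures only how alike the contrast is in these sorts. Of 14095 genes, 740 (5.25%) were higher and 1116 (7.92%) lower in detected cells at a Benjamini-Hochberg adjusted p under 0.05, and all 308 genes called by fold were among them, with a largest adjusted p of 0.0441. Those 308 were chosen for passing the same way in both libraries, which is what the test measures, so the overlap is no separate support. Without TMM scaling edgeR gave 1243 higher and 925 lower, so that 57.3% of its calls were higher in place of 39.9%. Adjusted p below is from this edgeR test unless stated.

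Of the neighbours of Cdkn2a on chromosome 4, Cdkn2b, which encodes the CDK inhibitor p15INK4B and lies 11.6 kb away (89306299 to 89311039, minus strand), had the larger ratio. Its level was 12.8 against 4.85 CPM in the Tom positive library, with a ratio of 2.63 (2.06 to 3.37). In the Tom negative library it was 17.4 against 5.15 CPM, with a ratio of 3.39 (2.73 to 4.20). It stayed under the 20 CPM needed for a call, and its adjusted p was 0.000528 (n = 2 libraries, edgeR). Mtap, a methionine salvage enzyme 93.4 kb away on the other side, was 30.1 against 24.2 CPM and 37.9 against 26.8 CPM, ratios of 1.24 and 1.41 with an adjusted p of 0.0615 in edgeR. Klhl9, an ubiquitin ligase adaptor farther off, had ratios of 1.07 and 1.17 (edgeR adjusted p = 0.534), and Dmrta1 had 0 UMIs in all classes.

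The tdTomato reporter was called higher in detected cells, close to the threshold in the Tom negative library. Its level was 655 against 312 CPM in the Tom positive library, a ratio of 2.10 (2.04 to 2.17). In the Tom negative library it was 22.8 against 14.9 CPM, a ratio of 1.53 (1.34 to 1.76). Keratin-high, collagen-low cells held 99.3 CPM of tdTomato in the Tom positive library, with a UMI in 20 of 22 cells. In the Tom negative library they held 12.1 CPM, with a UMI in 3 of 22 cells. The source of these UMIs was not tested. For the fibroblast comparison the edgeR adjusted p of tdTomato was 0.00128 over the 2 libraries. The call was lost in 6 of 17 alternatives, among them 20 depth bins, with a Tom negative ratio of 1.47, and equal numbers of cells drawn per decile, with 1.496. In the Tom positive library 45 of 196 detected cells (23.0%, 17.3 to 29.5%) and 170 of 991 undetected cells (17.2%, 14.9 to 19.6%) reached 500 CPM of tdTomato, so the intervals overlap, and 97 cells lay between 250 and 1000 CPM. No fibroblast of the Tom negative library reached it, in 0 of 328 detected and 0 of 1565 undetected cells. Read the other way, 16.8% of the 268 reporter-high and 12.4% of the 1220 other Tom positive fibroblasts were detected, with 19.3 and 14.1 CPM of Cdkn2a. Without the reporter-high cells the Tom positive ratio was 1.01, but those cells were removed by the level that is then compared.

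Contractile genes were higher in detected cells. Of 17 measured genes of the myofibroblastic list, 7 were called higher and 0 lower, with a median log2 ratio of 0.34 and 0.80 against 0.09 over all genes. Over all genes 1.97% were called higher and 2.93% lower. Acta2, the smooth muscle actin that marks myofibroblasts, was at 831 against 332 CPM in the Tom positive library and 1439 against 526 CPM in the Tom negative library. Its ratios were 2.50 and 2.74 (edgeR adjusted p = 0.00027). Tagln, an actin-binding protein of smooth muscle, was at 931 against 388 CPM and 1279 against 504 CPM. Myl9, the regulatory myosin light chain, had ratios of 2.45 and 2.15, and the tropomyosin genes Tpm1 and Tpm2 ratios between 1.95 and 2.23. The list's matrix genes Postn and Cthrc1 were not called. Postn, a secreted matrix protein, was at 2643 against 2558 CPM and 2021 against 1973 CPM, and Cthrc1, another, had ratios of 0.855 and 0.916. Fhod3, an actin-nucleating formin, and Moxd1, a monooxygenase homologue, were among the 12 genes highest in both libraries, with ratios of 2.48 and 3.47 and of 2.63 and 6.53. Markers of pericytes and smooth muscle summed to 934 against 402 CPM and 1592 against 624 CPM, mostly Acta2. Of its 9 members tested in edgeR 5 were higher and 1 lower. Besides Acta2 these were Cspg4, Mcam, Notch3 and Des, a proteoglycan, an adhesion molecule, a receptor and an intermediate filament protein, with edgeR log2 fold changes from 0.57 to 1.37. The potassium channel subunit gene Abcc9 was the lower one, at 10.2 against 20.5 CPM and 13.6 against 21.6 CPM, and the defining marker Higd1b was at or under 0.285 CPM in all classes.

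Glucose metabolism and hypoxia genes were also higher. Of 21 measured, 7 were called higher and 1 lower, with a median log2 ratio of 0.57 in the Tom positive and 0.59 in the Tom negative library, and edgeR placed 19 of 23 tested higher and 2 lower. The shares over all genes were 1.97% and 2.93% by fold and 5.25% and 7.92% in edgeR. The 7 calls became 1 without the cells holding 5 or more Cdkn2a UMIs, 2 without barcodes shared by the libraries, 2 with 1 Cdkn2a UMI enough and 4 with TMM scaling. Egln3, an oxygen-sensing prolyl hydroxylase that hypoxia induces, was at 25.6 against 5.50 CPM and 33.2 against 9.35 CPM, ratios of 4.66 and 3.55 (edgeR adjusted p = 7.66e-05). It lost its call without the cells holding 5 or more Cdkn2a UMIs, without shared barcodes and with 1 Cdkn2a UMI enough. In each of these settings its log2 ratios stayed at 1.26 or more, past the fold for a call, and only its level fell short. Ero1l, an oxidase of the endoplasmic reticulum, was at 139 against 61.5 CPM and 234 against 82.8 CPM. The glucose transporter gene Slc2a1 was at 101 against 48.9 CPM and 123 against 63.2 CPM, ratios of 2.07 and 1.95, and Bnip3, a mitophagy receptor, had ratios of 1.96 and 1.73. The glycolytic enzyme genes Pgk1, Tpi1 and Hk1 had ratios of up to 1.64. Gapdh stayed under the fold for a call at 1393 against 1010 CPM and 1971 against 1418 CPM. The exception was Adm, a vasodilator peptide that hypoxia also induces, at 82.0 against 183 CPM and 97.0 against 180 CPM. P4ha1, a collagen prolyl hydroxylase, was the 1 of 15 crosslinking and processing genes called, with ratios of 1.61 and 1.68.

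Inflammatory fibroblast genes were lower in detected cells, the list with most calls of all. Of 19 measured genes 0 were called higher and 13 lower, with a median log2 ratio of -0.97 and -1.30, and edgeR placed 17 of 20 lower. By fold 2.93% of all genes were called lower, and in edgeR 7.92%. The cytokine gene Il6 was at 71.0 against 182 CPM in the Tom positive library and 91.3 against 225 CPM in the Tom negative library, ratios of 0.391 and 0.405 (edgeR adjusted p = 3.16e-05). Ccl2, which attracts monocytes, was at 89.6 against 219 CPM and 138 against 429 CPM. The related chemokine gene Ccl7 had ratios of 0.380 and 0.381. Cxcl1, which attracts neutrophils, was at 263 against 632 CPM and 497 against 1054 CPM. Has1, a hyaluronan synthase, was at 123 against 300 CPM and 137 against 362 CPM, and the complement gene C3 had ratios of 0.512 and 0.286. The remaining genes of the list called lower were Clec3b, Col14a1, Dpt, Hp, Ly6a, Ly6c1 and Svep1, which are not cytokine genes. Col14a1 is counted again with the collagens below. NF-kB response genes, which cytokines induce, had 0 of 12 higher and 4 lower. These were Ptx3, Icam1, Nfkb1 and Tnfaip3, with ratios from 0.375 to 0.662. The 4 became 2 without clusters 14 and 15, described below, where Nfkb1 and Tnfaip3 were not called, and Tnfaip3 lost its call in 10 of 17 alternatives. Of 19 immediate early and heat shock genes, 0 were higher and 3 lower, namely Klf4, Zfp36 and Nr4a1, with ratios from 0.361 to 0.665. In edgeR 13 of these 19 were lower and 0 higher.

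**Figure D3:**
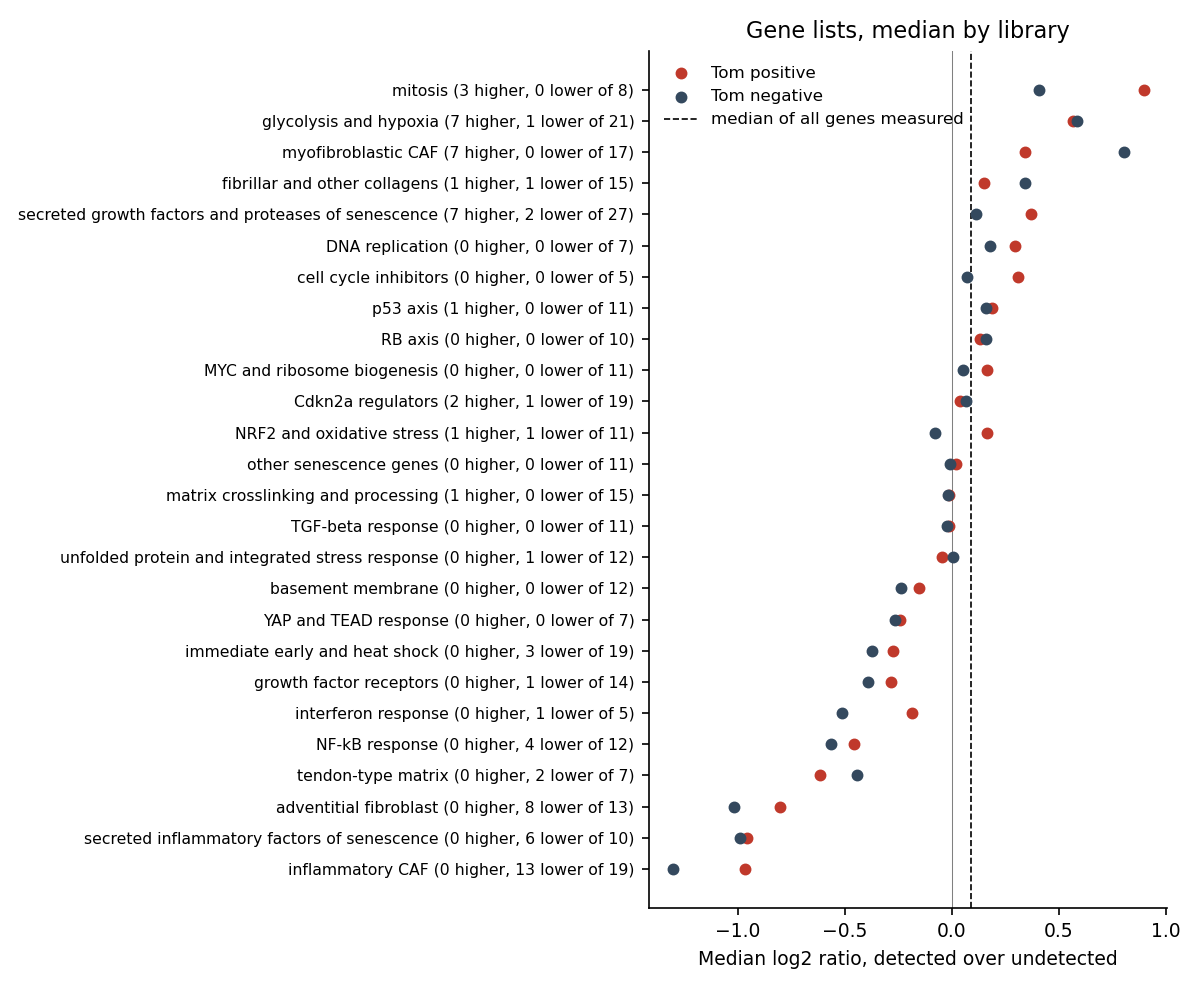
Median log2 ratio of detected over undetected cells (x axis) for each gene list with at least 5 measured members (y axis, with its counts called), in the Tom positive library (red) and the Tom negative library (blue). The dashed line is the median of all genes measured. Inflammatory, secreted inflammatory and adventitial lists lie lowest in both libraries. Mitosis and glycolysis and hypoxia lists lie highest in the Tom positive library, and the myofibroblastic list in the Tom negative library.

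Adventitial fibroblast genes, which mark cells around vessels and in connective sheets, were lower as well. Of 13 measured 0 were higher and 8 lower, with a median log2 ratio of -0.80 and -1.02. Among all genes 1.97% were called higher and 2.93% lower. Cd34, a sialomucin of progenitor-like fibroblasts, was at 65.6 against 145 CPM and 58.8 against 183 CPM. Pi16, a peptidase inhibitor of the same cells, had ratios of 0.532 and 0.320, Dpp4, a cell-surface peptidase, 0.409 and 0.415, and Sema3c, a guidance factor, 0.468 and 0.395. Outside this list, Clec3b, a plasminogen-binding lectin counted in the inflammatory list, was at 83.8 against 202 CPM and 74.2 against 202 CPM. Tnxb, a matrix glycoprotein in neither list, was at 108 against 261 CPM and 88.0 against 277 CPM. Other genes among the 12 lowest were Rrad, a small GTPase, with ratios of 0.281 and 0.288, Efemp1, an elastic fibre protein, with 0.387 and 0.336, the progesterone receptor gene Pgr with 0.334 and 0.394, and Vegfd, a lymphatic growth factor, with 0.405 and 0.393.

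Most matrix and identity genes of fibroblasts were not called by fold. Dcn, the proteoglycan decorin, was at 2248 against 3614 CPM and 1607 against 3101 CPM and was the 1 of 12 fibroblast markers called. Most of these markers did pass in edgeR, which placed 3 of 12 higher and 7 lower. Fn1, fibronectin, had ratios of 0.856 and 0.889, and Pdgfra, a receptor that marks fibroblasts, 0.709 and 0.698. The collagen sum used to choose the cells was 55538 against 70124 CPM and 43122 against 58691 CPM, which is given as a description since these genes chose the cells. Of 15 other collagens 1 was called higher and 1 lower, and edgeR placed 7 higher and 1 lower. Col7a1, an anchoring fibril collagen, was at 42.0 against 18.9 CPM and 32.2 against 7.96 CPM, and Col14a1, a fibril-associated collagen, at 574 against 1009 CPM and 411 against 853 CPM. Basement membrane, TGF-beta response and YAP response lists had 0 of 12, 0 of 11 and 0 of 7 called in either direction. In edgeR, 0, 1 and 3 of their tested members were higher and 7, 4 and 4 lower.

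Secreted products linked to senescence were counted in a pair of lists. Of 10 measured inflammatory factors 0 were higher and 6 lower, namely Il6, Cxcl1, Cxcl10, Ccl2, Ccl7 and Csf1, and 5 of these 6 are chemokine or interleukin genes. The lists overlap. Il6, Cxcl1, Ccl2 and Ccl7 were already counted in the inflammatory fibroblast list, and Cxcl10 is counted again with the interferon response below. Over all genes 1.97% were called higher and 2.93% lower. Of 27 measured growth factors and proteases 7 were higher and 2 lower, and edgeR placed 13 of 33 tested higher and 9 lower. The counts were 4 and 3 with TMM scaling, and 3 and 2 without the cells holding 5 or more Cdkn2a UMIs. Inhba, the subunit of activin A, was at 145 against 52.5 CPM in the Tom positive library and 245 against 84.4 CPM in the Tom negative library, ratios of 2.77 and 2.90 (edgeR adjusted p = 3.25e-05). Spp1, osteopontin, was at 5904 against 3825 CPM and 11598 against 4403 CPM. Igfbp3, a carrier of insulin-like growth factors that is also in the myofibroblastic list, had ratios of 1.53 and 2.35. Nrg1, a ligand of ErbB receptors, had 1.54 and 1.58. Igfbp6 and Fgf2, a growth factor carrier and a growth factor, were the members called lower, with ratios from 0.512 to 0.595. The metalloproteinase genes Mmp10, Mmp12 and Mmp13 were called higher, but 1 cell gave 59.9%, 45.5% and 35.3% of their UMIs in a class of a library. Mmp12, which macrophages also make, was no longer called without clusters 14 and 15, described below, its log2 ratios being -0.47 and 0.49.

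Genes that act with p16INK4A and p19ARF were counted beside the shares over all genes, 1.97% called higher and 2.93% lower. Of 10 measured RB axis genes 0 were called, and Cdk4, the target of p16INK4A, was at 138 against 129 CPM and 159 against 148 CPM. Of 11 p53 axis genes 1 was higher, the p53 target Phlda3, at 79.6 against 52.3 CPM and 105 against 66.8 CPM. For the RB axis edgeR placed 1 of 12 tested higher and 0 lower, and for the p53 axis 4 of 23 higher and 1 lower. Over all genes tested these shares were 5.25% and 7.92%. Trp53 itself had ratios of 1.14 and 1.06, and Mdm2, the target of p19ARF, 1.14 and 1.21 (edgeR adjusted p = 0.0906). Cdkn1a, which encodes the CDK inhibitor p21, was at 64.0 against 39.1 CPM and 71.7 against 49.1 CPM. Its ratios of 1.64 and 1.46 fell just short of a call, and its edgeR adjusted p was 0.000346. Of 5 measured cell cycle inhibitors 0 were called, and edgeR placed 2 of 6 tested higher, Cdkn1a and Cdkn2b, and 1 lower. The lower one was Cdkn1c, which encodes p57, with a log2 fold change of -0.71 (edgeR adjusted p = 0.000835). Among 19 measured regulators of the locus, Tbx3 and Ets1 were higher and Myc lower. Tbx3, a repressor of Cdkn2a in development, was at 29.2 against 15.8 CPM and 36.0 against 12.8 CPM. Ets1, an activator of p16, was at 44.7 against 28.7 CPM and 60.2 against 35.7 CPM. Myc was at 40.4 against 79.5 CPM and 60.5 against 105 CPM.

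Of the division genes some were higher and none was called lower in detected cells. Of 8 measured mitosis genes 3 were higher and 0 lower, and edgeR placed 10 of 24 higher and 0 lower. The shares of all genes higher were 1.97% by fold and 5.25% in edgeR. Ube2c, a ubiquitin-conjugating enzyme of mitotic exit, was at 49.1 against 23.2 CPM and 79.1 against 46.1 CPM. Cenpa, the centromeric histone, had ratios of 2.17 and 1.65, and Ccnb2, a mitotic cyclin, 2.54 and 1.57. Mki67, the proliferation marker, was at 25.8 against 13.7 CPM in the Tom positive library but 23.8 against 27.6 CPM in the Tom negative library (edgeR adjusted p = 0.687). Of 7 DNA replication genes 0 were called. Cells with at least 3 UMIs over 6 division genes, Mki67 and Ube2c among them, made up 26.0% of detected and 17.1% of depth-weighted undetected cells in the Tom positive library, and 36.3% and 27.8% in the Tom negative library. Without these cells 169 genes were higher and 221 lower. Ube2c, one of the genes that chose those cells, then had log2 ratios of -0.30 and -0.45. Without barcodes that both libraries share its log2 ratios were -0.32 and 0.29, and it was not called. With 20 depth bins 1 mitosis gene was called higher in place of 3.

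Further genes that stood out were spread over other roles. Arg1, an arginine-degrading enzyme, was at 161 against 57.9 CPM and 153 against 66.0 CPM, and without clusters 14 and 15 it was still called, with a smaller log2 ratio of 0.84. Hmox1, a haem oxygenase of the oxidative stress response, had ratios of 1.93 and 2.11, while Gstm1, a glutathione transferase of the same list, had 0.623 and 0.514. Adgrl3 and Clstn2, cell-adhesion genes best known from neurons, had ratios of 2.40 and 4.17 and of 2.76 and 3.62. Ptprn, a protein of secretory granules, was at 42.2 against 17.5 CPM and 62.7 against 27.0 CPM. Glipr1, a secreted CAP-domain protein gene, had ratios of 2.54 and 2.83. Interferon response genes had 0 of 5 higher and 1 lower, Cxcl10, at 15.3 against 44.6 CPM and 15.5 against 46.5 CPM, where 1 cell held 30.3% of the UMIs of a class. Of 20 interferon response genes tested, edgeR placed 0 higher and 6 lower. Of 12 genes of the unfolded protein and integrated stress responses only Atf3 was called, lower at 53.5 against 118 CPM and 48.4 against 97.2 CPM. Of 11 MYC and ribosome biogenesis genes and 11 other senescence genes 0 were called by fold. For MYC and ribosome biogenesis edgeR placed 0 of 13 tested higher or lower. For the other senescence genes it placed 2 of 15 tested higher, Hmgb1 and Hmgb2. It placed 5 lower, namely Bcl2, Gpnmb, Fuca1, Ctsl and Lamp2. By fold the shares over all genes were 1.97% higher and 2.93% lower, and in edgeR 5.25% and 7.92%.

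Markers of other cells were checked over their whole lists. Macrophage markers summed to 196 against 226 CPM and 266 against 281 CPM, with 3 of 12 at 20 CPM or more. Apoe was the 1 called, lower, with an edgeR log2 fold change of -0.79. Of 12 tested, edgeR placed Apoe lower and Csf1r higher, at 0.50. The other members did not pass in edgeR. Among those Lyz2 was at -0.21 and the rest were positive, up to 1.27 for Ms4a7. Neutrophil markers summed to 49.0 against 60.4 CPM in the Tom positive library and 130 against 52.9 CPM in the Tom negative library. There S100a8 and S100a9 were at 43.2 against 8.73 CPM and 42.9 against 8.26 CPM, with up to 71.4% and 82.7% of a class's UMIs from 1 cell. Mesothelial markers summed to 14.7 against 5.62 CPM and 20.1 against 7.40 CPM, and both members tested in edgeR, Wt1 and the keratin gene Krt19, were higher. Among them Wt1, a transcription factor of mesothelium, was at 4.65 against 2.50 CPM and 7.94 against 2.48 CPM (edgeR adjusted p = 0.00555), and the defining marker Msln was at or under 0.322 CPM. Each other list of immune, endothelial, epithelial, glial, muscle or red cell markers had no member at 20 CPM in both libraries. Of 6 epithelial members tested, edgeR placed 1 higher, Krt19 again, and 2 lower, Krt8 and Lcn2. Of 10 blood endothelial members it placed 1 lower, Tek. In the rest of these lists it placed none. Doublets called by Scrublet made up 2.04% of detected and 0.736% of weighted undetected cells in the Tom positive library, and 0.915% and 1.14% in the Tom negative library. Without them 122 genes were higher and 184 lower. With the 4 markers of other cells held under 100 CPM, 120 were higher and 191 lower.

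Cells with 1 Cdkn2a UMI, which the classes leave out, were weighted to the same deciles, as were cells with exactly 2 and with 3 or more. Acta2 stood at 332, 445, 614 and 1020 CPM with 0, 1, 2 and at least 3 Cdkn2a UMIs in the Tom positive library, and at 526, 714, 1003 and 1750 CPM in the Tom negative library. Dcn stood at 3614, 3113, 2547 and 1844 CPM, and at 3101, 2365, 2044 and 1255 CPM. Il6 stood at 182, 118, 79.4 and 67.5 CPM, and at 225, 161, 111 and 71.7 CPM. In these genes each further step of Cdkn2a UMIs went the same way in both libraries. Others were high mainly in the top class. Slc2a1 stood at 48.9, 57.8, 59.3 and 142 CPM, and at 63.2, 72.2, 69.9 and 161 CPM. Inhba stood at 52.5, 57.5, 96.4 and 199.9 CPM, and at 84.4, 125, 124 and 324 CPM. Comparing cells with any Cdkn2a UMI with those without gave 39 genes higher and 50 lower, and requiring 3 UMIs gave 219 and 314. Without the cells with 5 or more UMIs there were 67 higher and 133 lower, and Egln3, Slc2a1, Bnip3, Spp1 and Nrg1 were among those not called. Of these, Egln3 still passed the fold, with log2 ratios of 1.62 and 1.43, and fell short in level only.

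**Figure D4:**
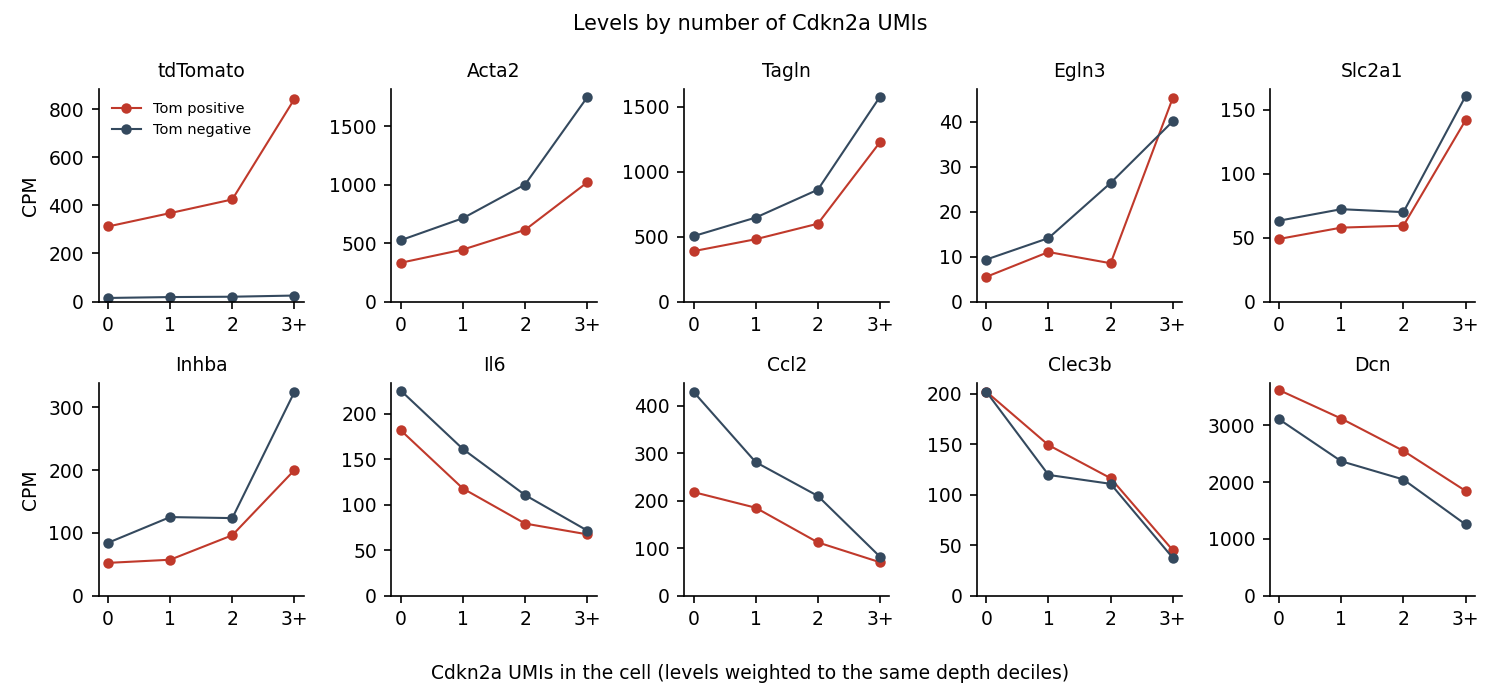
Level in CPM (y axes, linear, from 0) of 10 genes in cells with 0, 1, 2 and at least 3 Cdkn2a UMIs (x axis), weighted to the depth deciles of detected cells, in the Tom positive library (red) and the Tom negative library (blue). Acta2 and Tagln climb and Il6, Ccl2, Clec3b and Dcn fall at each step in both libraries, while Slc2a1 is highest in the last class.

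Clustering the fibroblasts without Cdkn2a and tdTomato gave 16 clusters, which are given by number and leading genes. Cluster 10, led by Fam19a2, Egln3, Ero1l and Inhba, had the highest share of detected cells, 50.0% of 36 cells in the Tom positive library (32.9 to 67.1%) and 39.5% of 81 cells in the Tom negative library (28.8 to 51.0%). Cluster 8, led by Spock3, Kcnq3 and Olfr810, held 32.7% and 34.2%, and by its size gave most detected cells of the Tom negative library, 101 of 328. Cluster 11, led by the division genes Hist1h2ap, Ube2c and Pclaf, held 23.3% and 31.0% at the greatest median depth, 65061 and 67060.5 UMIs. Cluster 7, led by Aqp5 and Col11a1, held 20.5% and 24.0%. At the other end, cluster 12, led by Stxbp6, Sema3c and Cd55, held 2.38% of 84 and 3.92% of 332 cells, and cluster 3, led by Inmt and Pgr, 1 of 80 and 5 of 180 cells. Cdkn2a was at 54.1 and 45.1 CPM in cluster 10 and at 5.09 and 6.14 CPM in cluster 12, and Acta2 at 1523 and 2600 CPM and at 10.2 and 30.5 CPM. Clusters 14, led by Itgam and Tbxas1, and 15, led by Ccr1 and Cxcl2, have myeloid genes in the lead. They held 11 detected cells in the Tom positive and 14 in the Tom negative library, and 13 and 22 of their cells were called doublets. Without both clusters 117 genes were higher and 188 lower.

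**Figure D5:**
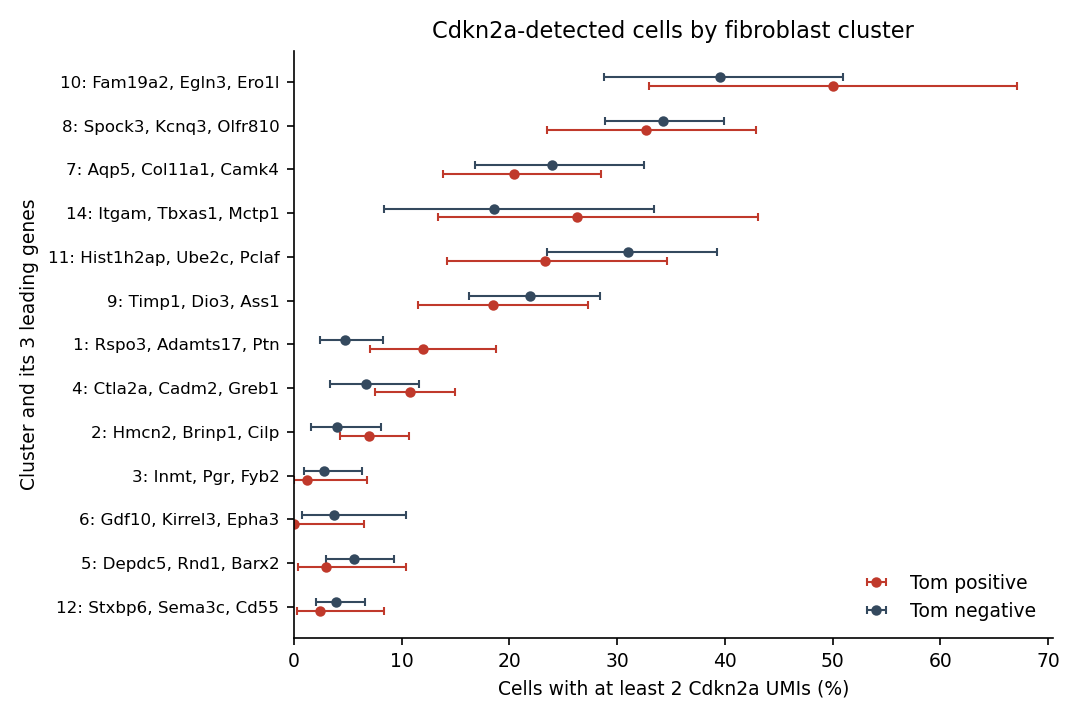
Percent of cells with at least 2 Cdkn2a UMIs (x axis) in 13 clusters of the chosen cells with at least 20 cells in both libraries, the myeloid-led cluster 14 among them (y axis, with 3 leading genes), in the Tom positive library (red) and the Tom negative library (blue), with 95% exact binomial intervals. Clusters 10 and 8 lie highest and clusters 3, 5, 6 and 12 lie low in both libraries.

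The comparison was repeated with undetected cells weighted by cluster and decile together, which kept 184 of 196 and 324 of 328 detected cells. The clusters were made from the same genes, so this removes any difference that follows the clusters. In the Tom positive library cluster 10 held 9.18% of detected but 0.807% of undetected cells, so few undetected cells carry its weight there. With this weighting 8 genes were higher and 6 lower. The limit on UMIs from 1 cell, used for the ranked genes, was not applied to these calls. The myofibroblastic, glycolysis and hypoxia, adventitial, NF-kB and mitosis lists had 0 called, and the inflammatory list 1 lower. Higher were Mmp10, Mmp12, Pgf, Hmga2, Lgr5, Mest, Gzmd and Gm12648, and lower were Ccl2, Cxcl10, Wisp2, Sntg1, Csmd1 and Gm17268, several of them outside the rule for named genes and listed because there are few. Ccl2 was at 92.8 against 182 CPM and 138 against 252 CPM, and Wisp2, a connective tissue growth factor relative, at 109 against 178 CPM and 71.7 against 124 CPM. Lgr5, a receptor for R-spondins, was at 52.5 against 32.0 CPM and 55.0 against 31.1 CPM. Of the genes called in the main comparison, 106 of 124 kept a ratio above 1 and 164 of 184 a ratio below 1 in both libraries. Acta2 had ratios of 1.83 and 1.30, Il6 0.615 and 0.735 and Inhba 1.02 and 1.16, while Clec3b was at 88.6 against 99.0 CPM and 73.8 against 74.3 CPM. The tdTomato ratio was 1.74 in the Tom positive and 1.19 in the Tom negative library. Cdkn2b, still under the level for a call, had a ratio of 1.48 (1.12 to 1.95) in the Tom positive library. In the Tom negative library its ratio was 1.24 (0.939 to 1.65), an interval that includes 1.

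Barcodes shared by the libraries numbered 3660. Of the fibroblasts, 609 in the Tom positive and 128 in the Tom negative library had a barcode found in the other library, among them 113 and 50 detected cells, and 1 barcode passed as a fibroblast in both. The other library held a median of 0.0183 and 0.0114 times the UMIs of such a cell, and was the deeper for 0 and 3 cells. Without shared barcodes 101 genes were higher and 152 lower, 75 and 128 of them also called with all cells, and edgeR placed 148 higher and 350 lower. Among the genes described above, tdTomato, Egln3, Slc2a1, Pgk1, Tpi1, Hk1, P4ha1, Igfbp3, Phlda3, Ets1, Ube2c, Cenpa, Ccnb2 and Mmp12 were then no longer called higher, nor Cxcl10, Icam1, Tnfaip3, Zfp36, Gstm1 and Abcc9 lower. The smaller log2 ratio was 0.27 for P4ha1 and 0.48 for Slc2a1, and Cxcl10 had 0.41 and -1.40. Egln3 kept log2 ratios of 1.76 in the Tom positive and 1.78 in the Tom negative library. It lost its call by its level and not by its fold. With TMM scaling tdTomato, Pgk1, Tpi1, Hk1, P4ha1, Igfbp3, Nrg1, Spp1, Phlda3, Ccnb2 and Ets1 were not called, the smaller log2 ratio of tdTomato being 0.52.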

How the data were processed

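RNA of single cells from 2 sorted fractions was read with the 10x 3′ kit (v3.1, per the labels). Values are raw UMI counts per gene and barcode as the authors deposited them, produced by Cell Ranger 7.0.1 per the file headers. The submitters' processing notes name mm10 as the genome. The cell-calling step is not given in the sources used here. The lowest barcode total was 500 UMIs, and the libraries held 128275546 and 164646314 UMIs. Gene positions are from GENCODE for mm10, and promoter sequences from RefSeq (GRCm38.p6).

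Raw counts were summed over detected and undetected cells within each library with Python 3.11.15, the undetected deciles of total UMIs being weighted to the detected cells. Cells are not replicates, so a call needed 1.5-fold in both libraries at 20 CPM or more. For edgeR 4.0.16 (R 4.3.3), 196 and 327 cells per class were drawn with equal numbers per decile. The labels do not show that the sorts came from separate animals, so its p-values measure only the spread between these samples, which may be technical. DESeq2 1.42.0 was an alternative. Clusters are from Leiden clustering in scanpy 1.11.5, doublets from Scrublet. The sum and interval calculation was tested on simulated counts for this comparison: 100% of 200 genes set 2-fold apart were recovered among 6133 genes, with 0 false calls, and 94.7% of intervals held the true ratio. Only counting error was simulated.

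The members, thresholds and gene lists were chosen with earlier results of these data known. Named genes are a fixed set at and around the locus, the 12 highest and 12 lowest of those called, up to 4 members of each list and marker genes of other cells. Mitochondrial, ribosomal, haemoglobin and predicted genes, genes of the cell filter and genes with over 20% of a class's UMIs from 1 cell were left out of the ranked 12. Further list members are given where they complete a count, and some were chosen after their values were seen. Intervals are 95%, exact binomial for shares, and hold counting error only.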

Additional observations from a re-analysis of the deposited data

Results flagged for a closer look

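Among the genes of the lists and the named genes, 5 differed by at least 1.5-fold between the libraries while the ratio of detected over undetected cells had a 95% counting interval above 1 in one library and below 1 in the other. Other genes were not searched in this way, and Wfdc17, outside the lists, had ratios of 0.586 and 1.68. The difference between the libraries was not tested, since each sort gave 1 library. Mki67, the proliferation marker, had a ratio of 1.89 (1.60 to 2.23) in the Tom positive and 0.861 (0.756 to 0.981) in the Tom negative library. Cxcl2, a neutrophil chemokine, had 1.32 (1.23 to 1.41) and 0.776 (0.741 to 0.812). Ereg, an ErbB ligand, had 1.43 (1.29 to 1.58) and 0.740 (0.680 to 0.806). Itga11, a collagen receptor subunit, had 1.14 and 0.658 (0.587 to 0.736). Hspa1b, an inducible heat shock protein gene, had 1.39 (1.27 to 1.54) and 0.648 (0.589 to 0.712).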

How the results depend on the processing

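Higher and lower calls were 124 and 184. They became 39 and 50 with 1 Cdkn2a UMI enough, 219 and 314 with 3 needed, 220 and 300 without depth matching, 8 and 6 with cluster and decile matched together, 252 and 286 at 5 CPM and 403 and 420 at the lower fold tried. Higher calls alone became 79 with TMM factors, 67 without cells of 5 or more Cdkn2a UMIs and 63 at 50 CPM. Leaving out either library, a call resting on the other alone, gave 160 to 248 higher and 212 to 360 lower. The other settings kept both counts within 1.5 times. In edgeR 740 and 1116 became 406 and 716 in DESeq2, 1243 higher without TMM, 1533 and 1989 without matching and 148 and 350 without shared barcodes. Without the replicate block, the library not being in the model, 64 were higher and 129 lower; the block pairs the sums of 1 library. The tdTomato ratio of the Tom positive library, 2.10, was 1.55 and 2.84 with at least 1 and 3 UMIs, 1.96 without matching, 1.74 within clusters, 2.01 at 5% mitochondrial UMIs, 2.49 without shared barcodes, 1.97 without dividing cells, 1.95 with TMM, 1.96 as a mean per cell, 1.78 without cells of 5 or more Cdkn2a UMIs and 1.01 without reporter-high cells. In the Tom negative library it was 1.19 within clusters. Of named genes, Ube2c reversed, to a mean log2 ratio of -0.0103 without shared barcodes, where the libraries went opposite ways, and to -0.30 without dividing cells, which were chosen in part by Ube2c itself. Likewise reporter-high cells were chosen by tdTomato, so their removal acts on the value compared. The cause of the other changes was not tested. Precision is limited by 196 and 328 detected cells.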
